A study of Mus musculus with 72 samples.

Results

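The renal cortex of Balb/c mice exposed to the radionuclide 177Lu at an absorbed dose of 3 Gy was compared with control cortex, both taken at 4.5 months. The comparison uses 6 of the 72 Illumina expression arrays of the series, 3 exposed and 3 control, chosen by their titles. All 72 arrays carry total RNA of kidney cortex or kidney medulla from controls or from mice at 0.3, 3 or 10 Gy, at 1.5, 3 or 4.5 months, with 3 arrays in each of 24 groups. Control samples have no dose in the labels, although the nuclide field of the labels names 177-lutetium for them too. Nothing in the labels tells whether separate animals gave the 3 samples of a group. Every p-value here therefore measures only the spread between samples within groups, which may be technical. In the main fits that spread was pooled over 35 cortex arrays in 12 groups, or over 71 arrays in 24 groups for comparisons with medulla. It is thus not the spread of the groups compared alone. Each gene was read from 1 probe as log2 of the deposited intensity, and 8243 of 16593 genes reached an intensity of 150 on all 3 arrays of either group and were tested.

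The kidney cortex holds glomeruli, proximal tubules and the distal segments around them, and the medulla holds loops of Henle, collecting ducts and, at its tip, the papilla with a lining of urothelium. Lutetium-177 emits beta particles of short range, and radiopharmaceuticals that carry it are cleared by the kidney and partly retained in the cortex. Hepcidin, the product of Hamp, is a peptide hormone made mainly by hepatocytes. It binds the iron exporter ferroportin and leads to its degradation, and its transcription is raised by iron through BMP and SMAD signalling and by inflammation through IL-6 and STAT3. Apolipoproteins are the protein parts of plasma lipoproteins, and most of them are secreted by liver and intestine.

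The deposited intensities had been quantile-normalized, with array medians of 143.4 to 143.9. One cortex array outside both groups, control replicate 3 at 1.5 months, correlated poorly with the rest of the cortex (mean Pearson r over genes, 0.621) and was left out of the fit. The other 35 cortex arrays had mean r values of at least 0.961, and the 6 arrays compared lay between 0.967 and 0.974. Proximal tubule transcripts were high on all 6 arrays, as for the phosphate transporter Slc34a1 at 14.09 to 14.66 log2 units. Adrenal transcripts were present on exposed array 3 and control array 3: Cyp11b1, the enzyme of the last step of corticosterone synthesis, read 12.92 and 11.43 there and 6.77 to 6.83 on the other 4. The summed intensity of the 12 adrenal markers with a probe ranged from 1476 to 13406 over the exposed arrays and from 1464 to 5400 over the controls. In bulk tissue a smaller number of cells of a type and less RNA per cell cannot be told apart.

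After Benjamini-Hochberg adjustment of limma's p-values over all tested genes, 3 genes rose at 3 Gy and 0 fell. They were Hamp, Apoa2, which encodes an apolipoprotein of high-density lipoprotein, and Apof, which encodes a lipid transfer inhibitor. The risen genes were 0.0364% of those tested. At an unadjusted p under 0.05, 580 genes were higher (7.04%) and 325 were lower (3.94%). All 3 exposed arrays lay above all 3 control arrays for 1071 genes (13%) and below them for 801 genes (9.72%). Both conditions held together for 475 higher (5.76%) and 283 lower genes (3.43%), the pool from which the largest differences are named further on. The median difference over all tested genes was 0.03 log2 units and the median SE was 0.12. With the array that stood apart included, Hamp alone passed. With both arrays that carried adrenal transcripts left out, an alternative chosen after seeing the data, 4 genes rose and 0 fell: Hamp, Apoa2, Apof and Ambp.

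Hamp had the smallest p-value of the comparison. The exposed arrays read 7.75, 8.53 and 7.61 log2 units, and the control arrays 6.77, 6.85 and 6.74. All exposed arrays lay above the floor of 7.23 log2 units that corresponds to an intensity of 150, and all controls lay under it, so that the groups did not overlap. The mean was 7.96 ± 0.50 at 3 Gy and 6.79 ± 0.06 in controls (SD, n = 3), a measured difference of 1.17 ± 0.15 (SE) with an adjusted p of 0.000150 from limma. Since Hamp passed the floor only through the exposed group, the rise is given as a bound, at least 1.66-fold. On the other 32 cortex arrays of the fit, Hamp read between 6.68 and 7.39 with a median of 6.85, and on the 36 medulla arrays between 6.72 and 7.14. The call held when any 1 of the 6 arrays was left out, with differences of 0.89 to 1.35. The call was lost when the spread was estimated from the 6 arrays alone, where the adjusted p was 0.0546, and from the 12 cortex arrays of 4.5 months, where it was 0.0891.

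**Figure D1:**
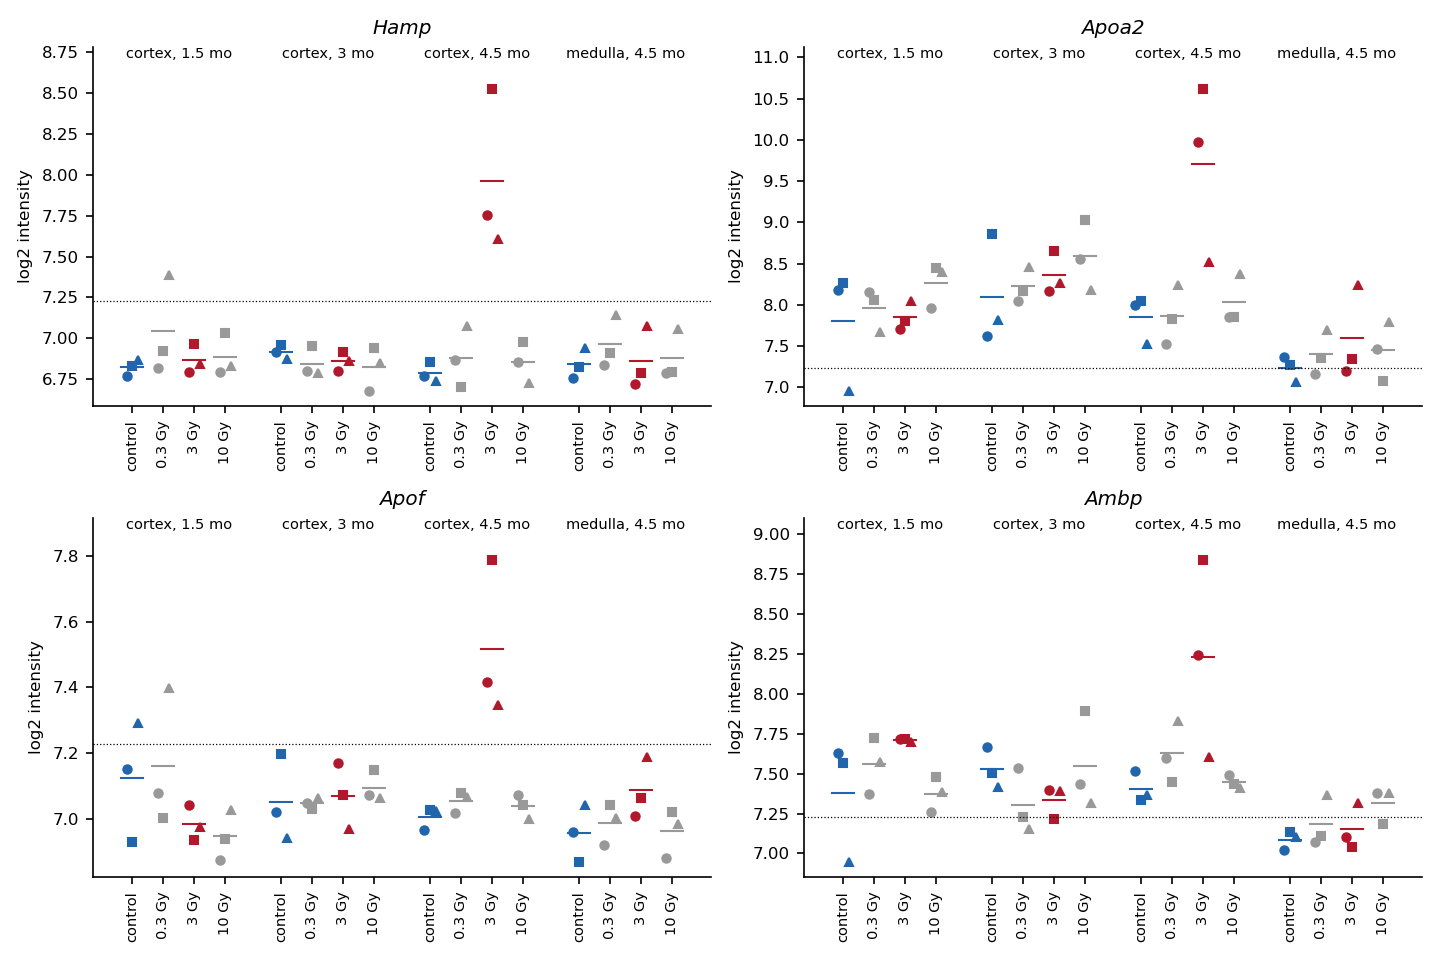
Log2 intensity of Hamp, Apoa2, Apof and Ambp on each array (vertical axes) by dose, for cortex at 1.5, 3 and 4.5 months and medulla at 4.5 months (horizontal axes). Circles, squares and triangles are replicates 1, 2 and 3, short lines are group means, red marks 3 Gy, blue control and grey the other doses, and the dotted line is the floor of 7.23; the triangle of the cortex controls at 1.5 months is the array left out of the fit. For Hamp, the 3 arrays of 3 Gy cortex at 4.5 months sit between 7.61 and 8.53, above every other array drawn.

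Mice carry a second hepcidin gene, Hamp2, beside Hamp on chromosome 7, and the promoters of both are shown because they are near copies with a difference in a motif known from hepcidin regulation. The Hamp2 probe read 7.54, 7.74 and 7.88 on the exposed arrays and 7.02, 7.66 and 7.03 on the control arrays. Control array 2 lay among the exposed values, so the groups overlapped, and the difference of 0.49 ± 0.22 had an adjusted p of 0.423 in limma. On control array 2 the Hamp probe stood at 6.85, with no such elevation. Whether either probe also takes up transcripts of the other gene is not known here. RefSeq's promoter table for GRCm38.p6 held Hamp, Hamp2 and Apoa2, 3 of the 4 genes looked for, and not Apof. Each sequence runs from 250 bases before the annotated start to 50 bases after it, 5′ to 3′ on the gene's strand, and capitals mark any match on either strand to TTCNNNGAA (the STAT site), GGCGCC (the core of the BMP response element of hepcidin genes) or GTAAACA (the forkhead motif).
Hamp, chr7:30943980-30944279, minus strand: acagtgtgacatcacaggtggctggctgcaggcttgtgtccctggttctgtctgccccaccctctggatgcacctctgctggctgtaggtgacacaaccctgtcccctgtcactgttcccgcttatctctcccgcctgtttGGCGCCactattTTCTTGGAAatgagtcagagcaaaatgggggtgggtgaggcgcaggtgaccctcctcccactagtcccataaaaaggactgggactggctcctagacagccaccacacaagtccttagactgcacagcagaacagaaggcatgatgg
Hamp2, chr7:30924132-30924431, minus strand: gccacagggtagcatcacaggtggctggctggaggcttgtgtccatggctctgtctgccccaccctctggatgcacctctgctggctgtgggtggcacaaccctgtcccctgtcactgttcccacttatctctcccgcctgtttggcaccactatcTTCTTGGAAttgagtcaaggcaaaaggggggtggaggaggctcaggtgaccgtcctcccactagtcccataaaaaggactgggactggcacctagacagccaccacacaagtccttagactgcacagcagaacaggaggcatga

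The aligned Hamp and Hamp2 promoters were identical at 276 of 297 bases (92.9%). Both hold the STAT site, whose first base is at -97 from the start of Hamp and at -94 from that of Hamp2. The BMP motif begins at -109 in Hamp. Its 6 letters carry the substitution G4A in Hamp2, with positions counted from 1 at the 5′ end of the motif and the Hamp base first, and the Hamp2 promoter holds no other match. Over all 32851 promoters of the table, 8.3% hold the STAT letters and 11.9% the BMP letters, so neither is rare. A match describes letters and does not show that a factor binds there.

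Apoa2 showed the largest rise of the genes that passed. Its exposed arrays read 9.98, 10.62 and 8.52 log2 units against 7.99, 8.04 and 7.52 on the control arrays. The lowest exposed array was still above the highest control, but exposed array 3 stood well below arrays 1 and 2. The means were 9.71 ± 1.08 and 7.85 ± 0.29 (SD, n = 3), a difference of 1.85 ± 0.34 or 3.62-fold with an adjusted p of 0.0240 in limma. Elsewhere in the cortex Apoa2 read between 7.52 and 9.03, and in the medulla between 6.98 and 8.24. Apof, which was under the floor on all 3 control arrays (6.97, 7.03 and 7.02), read 7.42, 7.79 and 7.35 on the exposed arrays. The Apof groups did not overlap, and the rise of 0.51 ± 0.09, at least 1.22-fold over the floor, had an adjusted p of 0.0240. Both calls were lost when any of 5 single arrays was left out (exposed 1, exposed 2 or any control), with adjusted p from 0.0705 to 0.236 for Apoa2 and from 0.0517 to 0.236 for Apof. They held without exposed array 3, where the differences grew to 2.45 for Apoa2 (limma, adjusted p = 2.40e-05) and 0.60 for Apof (adjusted p = 0.00537).

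The Apoa2 promoter, downstream of the 2 starts that RefSeq lists, holds the forkhead motif on its reverse strand and neither of the other motifs. It is shown because Apoa2 had the largest rise that passed; 3.65% of all promoters hold those forkhead letters, and the match begins at -77.
Apoa2, chr1:171224804-171225103, plus strand: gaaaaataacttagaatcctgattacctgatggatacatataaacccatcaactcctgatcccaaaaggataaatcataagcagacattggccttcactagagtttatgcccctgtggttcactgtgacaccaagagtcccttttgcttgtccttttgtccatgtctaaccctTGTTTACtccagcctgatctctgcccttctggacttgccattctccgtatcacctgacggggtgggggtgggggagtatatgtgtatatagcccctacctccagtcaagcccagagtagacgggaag

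Most measured genes known chiefly from liver had higher means at 3 Gy. Of a list of 45 liver-expressed secreted proteins and enzymes, 40 had a probe and 18 were tested. Of the 18, 17 were higher and 1 was lower, with a median difference of 0.39 against 0.03 over all genes, of which 57.7% were higher and 42.3% lower. Leaving out any 1 of the 6 arrays left 14 to 17 higher with medians of 0.26 to 0.48. The adjusted test passed 3 of them (Hamp, Apoa2 and Apof), and 11 were higher at an unadjusted p under 0.05, against 7.04% of all genes. All 3 exposed arrays exceeded all controls for 7 members, against 13% of all genes. These counts favour a rise by construction, because 5 of the 18 passed the floor only through the exposed arrays and 0 only through the controls. Of the 22 members that were not tested, 18 had a higher mean at 3 Gy and 4 a lower one. That count is not separate support, since 10 of the 22 lay under the floor on all 72 arrays. The share of higher means over all untested genes is not given here.

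Ambp encodes the precursor of alpha-1-microglobulin and bikunin, and its exposed arrays stood in the same order as those of Apoa2. It read 8.24, 8.84 and 7.61 on the exposed and 7.51, 7.34 and 7.37 on the control arrays. Its groups did not overlap, and the difference of 0.82 ± 0.18 had an adjusted p of 0.0744 in limma. Without exposed array 3 it was 1.13 with an adjusted p of 0.000201.

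Apoa1, the main protein of high-density lipoprotein, read 7.88, 8.64 and 6.98 on the exposed arrays and between 6.95 and 7.03 on the controls. Ahsg, which encodes the plasma glycoprotein fetuin-A, read 8.02, 8.85 and 6.99 against 6.74 to 6.98. Neither was tested, since exposed array 3 lay under the floor. For Hamp, Apoa2, Apoa1, Ahsg and Ambp alike, array 2 was the highest exposed array and array 3 the lowest. Apof and Apoc3 had this order too, but not every member of the liver-expressed list did. Apoc4, Hamp2 and Rbp4 were highest on exposed array 3.

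Albumin, the main plasma protein made by hepatocytes, stayed under the floor. Alb read 6.77 to 6.98 on the exposed arrays and 6.74 to 6.84 on the controls. In all, 10 of the 40 members lay under the floor on all 72 arrays, Alb included, and so did Fgb (fibrinogen beta), Tat (tyrosine aminotransferase), Tdo2 (tryptophan dioxygenase) and Cyp2c29. The summed intensity of the 40 members was 11585 to 15081 over the exposed arrays and 8791 to 9488 over the controls. The part of liver RNA in these values was not tested.

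None of the following members passed the adjusted threshold. Apoc3, an inhibitor of lipoprotein lipase, read 8.18, 8.56 and 7.71 against 7.64, 7.60 and 7.89, with an adjusted p of 0.338. Itih1, a heavy chain of the inter-alpha-trypsin inhibitor, read 9.47, 9.38 and 9.24 against 8.99, 8.91 and 8.95, without overlap and with an adjusted p of 0.397. Ttr, the thyroid hormone carrier transthyretin, was 1.18 ± 0.44 higher with overlap and an adjusted p of 0.339. Its exposed mean of 11.30 lay near the median of the other 32 cortex arrays, 11.17, and its control mean was 10.11. Rbp4, the retinol carrier, was the single lower member, at 7.54, 7.42 and 7.57 against 8.21, 8.19 and 7.68, with an adjusted p of 0.511.

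**Figure D2:**
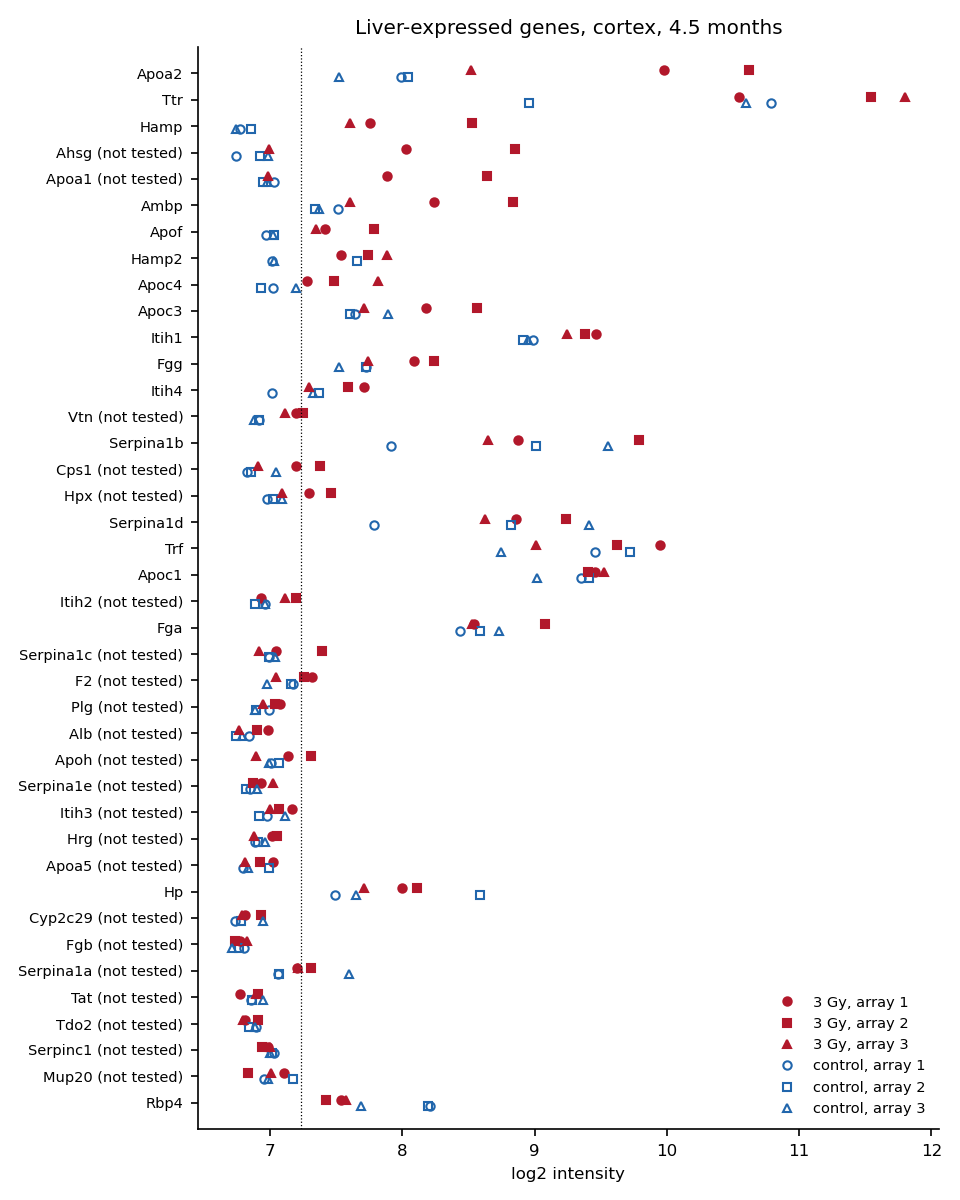
Log2 intensity (horizontal axis) of the 40 members of the liver-expressed list that have a probe (vertical axis, ordered by difference), with exposed arrays as filled red and control arrays as open blue symbols, one symbol shape per array. The dotted line is the floor of 7.23. Hamp, Apoa2, Ambp, Ahsg and Apoa1 spread to the right on exposed arrays 1 and 2, whereas Alb stays left of the line on all 6 arrays.

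The iron genes around hepcidin did not move together. Of 18 tested members of the hepcidin and iron list, 9 were higher and 9 lower with a median difference of 0.01, and Hamp was the single one that passed. Slc40a1, which encodes ferroportin, the target of hepcidin, read 12.43, 12.25 and 12.22 at 3 Gy and 11.93, 11.95 and 11.50 in controls. The groups did not overlap, and the difference of 0.51 ± 0.13 had an adjusted p of 0.160. Its exposed mean of 12.30 lay near the median of the other 32 cortex arrays, 12.23, and its control mean was 11.79. Hmox1, the heme-degrading enzyme heme oxygenase 1, was 0.30 ± 0.13 higher without overlap (adjusted p = 0.394). The transferrin receptor Tfrc was lower by -0.37 ± 0.21 and the hepcidin inducer Bmp6 by -0.30 ± 0.17, with adjusted p of 0.474 and 0.483. Id1, a target of BMP signalling, read 9.42, 9.71 and 9.35 against 9.52, 9.57 and 8.84 and so overlapped.

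The 3 Gy group was then compared with the other exposed groups, with no control array in the contrast but with the same 3 exposed arrays. The floor counted only 3 Gy and control arrays, so genes that reached it only at 0.3 or 10 Gy were not tested. At 4.5 months 3 Gy cortex was compared with the mean of 0.3 and 10 Gy cortex. In limma 4 genes were higher (0.0485%) and 1 was lower (0.0121%). Hamp was higher by 1.10 ± 0.13 (limma, adjusted p = 3.42e-05), Apoa2 by 1.76 ± 0.30 (0.00576) and Apof by 0.47 ± 0.08 (0.00696). The fourth was Apoc4, an apolipoprotein gene near Apoe, which read 7.28, 7.49 and 7.81 at 3 Gy, 6.81 to 6.87 at 0.3 Gy and 6.70 to 6.89 at 10 Gy, a difference of 0.70 ± 0.12 (limma, adjusted p = 0.00576). Against its own control, at 7.02, 6.93 and 7.20, Apoc4 was 0.48 ± 0.14 higher with an adjusted p of 0.254. Like Hamp and Apof, it reached the floor only through the 3 Gy arrays, which favours a higher call there. The lower gene was Cirbp, a cold-inducible RNA-binding protein, at -0.62 ± 0.12 (0.0440); it is named because its direction has a single member and was chosen after its values were seen.

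Single arrays decided some of these calls. Leaving out exposed array 1 raised the adjusted p of Apoa2 to 0.133, and leaving out exposed array 2 raised it to 0.134 for Apoa2 and 0.151 for Apof. Without exposed array 3, that of Apoc4 rose to 0.120. Cirbp lost the call under 6 of the 9 single omissions, with adjusted p up to 0.247, and Hamp kept it under all 9. With the spread taken only from the 9 arrays compared, Hamp and Apoc4 had adjusted p of 0.148 and 0.109. With no floor, limma called 5 of 16593 genes higher and 0 lower, with Hamp, Apoa2, Apof and Apoc4 among them.

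The controls of 4.5 months are shared by the differences at all doses, which are therefore given side by side. For Hamp they were 0.09 at 0.3 Gy, 1.17 at 3 Gy and 0.06 at 10 Gy. For Apoa2 they were 0.01, 1.85 and 0.18, and for Apof 0.05, 0.51 and 0.03. All 3 genes, which were picked by their rise at 3 Gy on these arrays, were highest at the middle dose.

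The difference from control was then compared with that at 1.5 and 3 months and with that in the medulla. Both contrasts contain the same exposed and control cortex arrays by which Hamp was picked, so neither is separate evidence of its rise. For Hamp the difference from control was 0.07 at 1.5 months and -0.05 at 3 months. The excess at 4.5 months was 1.17 ± 0.19 with an adjusted p of 0.00911 in limma. Hamp was the single gene past the threshold (0.0121% of those tested, with 4.8% at an unadjusted p under 0.05). The call was lost without control array 1 (adjusted p = 0.0512) and without control array 3 (0.0600), and also with the spread taken only from the arrays compared (0.0725). In the medulla at 4.5 months the Hamp difference was 0.02, and the cortex exceeded it by 1.15 ± 0.18 with an adjusted p of 0.000191, again as the single gene (0.0121%, with 2.06% at an unadjusted p under 0.05). With the spread taken only from the 12 arrays compared, the adjusted p of that difference was 0.999. Apoa2 differed from the earlier times by 1.91 ± 0.43 (adjusted p = 0.329) and from the medulla by 1.49 ± 0.41 (0.999), and Apof by 0.53 ± 0.12 (0.329) and 0.38 ± 0.11 (0.999), so a difference between times or layers was not shown for either.

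The 12 largest positive differences, among genes with an unadjusted p under 0.05 and no overlap, were those of Apoa2, Hamp, Nuak2, Ier3, Slc25a25, Ambp, Dpep1, Bdnf, Rnase4, Ang, Rcan1 and Dnajb1. Apart from Apoa2 and Hamp, none passed the adjusted threshold. Nuak2, a stress-activated kinase of the AMPK family, read 12.21, 12.17 and 12.001 against 10.98, 11.29 and 11.20, a gap of 0.96 ± 0.28 (adjusted p = 0.254). Rcan1, an inhibitor of calcineurin, read 10.96, 11.15 and 11.08 against 10.51, 10.45 and 10.13, a difference of 0.70 ± 0.16 (0.0786). Bdnf, a neurotrophin, held its 3 exposed arrays within 8.27 to 8.34 while the controls lay between 7.42 and 7.78, a difference of 0.73 ± 0.16 (0.0744). Its other probes, with means under the floor, differed by 0.03 and 0.01. With the spread taken from the 6 arrays alone, Nuak2 and Bdnf passed with adjusted p of 0.0455 and 0.0474. Rnase4 and Ang, secreted ribonucleases of one gene cluster, were higher by 0.72 ± 0.22 and 0.72 ± 0.27. The other 32 cortex arrays, controls included, had medians of 11.79 for Nuak2, 10.73 for Rcan1, 8.03 for Bdnf and 10.25 for Slc25a25. Exposed means of these genes were 12.12, 11.06, 8.31 and 10.26, and control means 11.16, 10.36, 7.58 and 9.41. Slc25a25 at 3 Gy was thus at the median of other cortex, whereas Nuak2, Rcan1 and Bdnf lay above it. The control means lay below it for each.

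Several genes of this set were on a list named for the immediate early genes, a class that responds within minutes to stress or growth signals. On that list of 24 genes, 14 were tested, 8 were higher and 6 lower with a median of 0.10, and 4 had an unadjusted p under 0.05, all higher: Nuak2, Ier3, Ier5l and Rcan1. Over all genes, 7.04% were higher and 3.94% lower at that p. The list was chosen with earlier results of these data known, so its counts are not independent support for a response of the class. Without control array 1, 6 members were higher and 8 lower. Ier5l had an adjusted p of 0.0744. Among the other members, Fos read 7.39, 8.47 and 8.19 at 3 Gy against 7.39, 8.43 and 9.73, and Egr1 9.15, 10.52 and 10.56 against 9.11, 11.16 and 11.68, both overlapping.

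**Figure D3:**
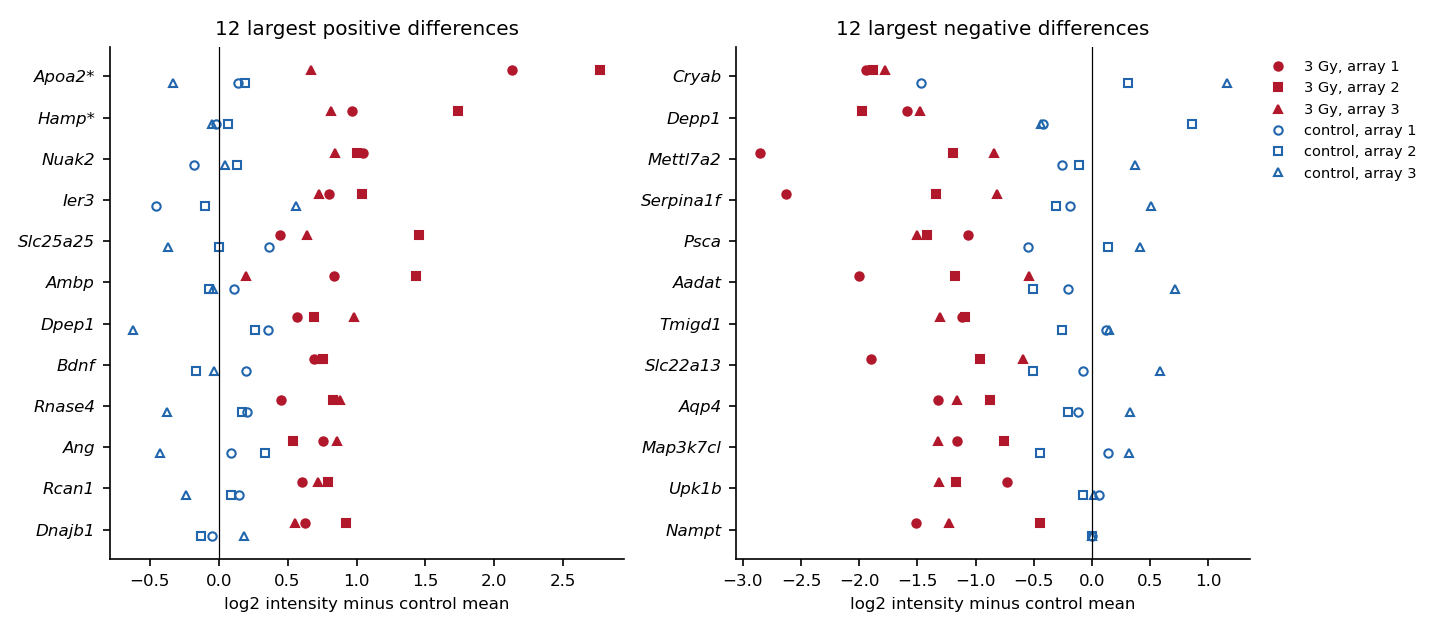
Log2 intensity minus the control mean (horizontal axes) of the 12 genes with the largest positive (left) and the 12 with the largest negative (right) differences, with exposed arrays as filled red and control arrays as open blue symbols. Asterisks mark genes past an adjusted p of 0.05, Apoa2 and Hamp. Cryab and Psca spread widely among controls, and Mettl7a2, Serpina1f and Aadat are lowest on exposed array 1.

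None of the 12 largest negative differences passed the adjusted threshold. With the spread taken from the 6 arrays alone, Tmigd1, Upk1b and Aqp4 passed in limma with adjusted p of 0.0455, 0.0474 and 0.0474, and 12 of the 14 genes called there were lower. The 12 were those of Cryab, Depp1, Mettl7a2, Serpina1f, Psca, Aadat, Tmigd1, Slc22a13, Aqp4, Map3k7cl, Upk1b and Nampt. Cryab, a small heat shock protein abundant in the renal papilla, read 7.99, 8.05 and 8.16 at 3 Gy and 8.47, 10.24 and 11.09 in controls. The exposed arrays were tight and the controls spread over more than 2 log2 units, so that the difference of -1.87 ± 0.62 had an adjusted p of 0.308. Aqp4, a water channel of collecting duct cells, read 7.46, 7.90 and 7.63 against 8.66, 8.58 and 9.10, at -1.12 ± 0.41 (0.339). Upk1b, a uroplakin of the urothelium, read 7.34, 6.90 and 6.75 against 8.12, 7.99 and 8.09, at -1.07 ± 0.31 (0.254). It passed the floor only through the controls. Mettl7a2 and Serpina1f had their lowest exposed value on array 1, at 8.43 and 8.35, where arrays 2 and 3 read 10.09 and 10.44, and 9.64 and 10.16.

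Most of the 12 genes with the largest negative differences were medullary in the control kidneys of 1.5 and 3 months. Those arrays are not part of the comparison. There, 11 of the 12 were higher in medulla than in cortex, 8 of them with an adjusted p under 0.05 and by over 2-fold, where 13.3% of all tested genes passed in that direction. Psca stood 3.07 log2 units higher in medulla, Aqp4 2.84 and Cryab 2.80. Of the 12 largest positive differences, 2 were higher in medulla and 0 passed, and 7 were higher in cortex past the threshold, where 15.4% of all genes were. Over the 143 genes more than 1 log2 unit higher in control medulla, the median difference at 3 Gy was -0.27, with 121 lower and 22 higher, and 34 were lower at an unadjusted p under 0.05 (23.8%) and 0 higher, against 3.94% and 7.04% of all genes. Over the 62 genes more than 1 log2 unit higher in control cortex the median was 0.07, with 36 higher and 26 lower. Across the 8243 genes, which share arrays and are not independent, Pearson's r between the 2 differences was -0.231 and Spearman's rho -0.138.

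Control array 3 moved these medians. Slc14a2, the urea transporter of the inner medullary collecting duct, read 9.27 there, 7.75 on control array 2 and 6.77 to 7.05 on the other 4 arrays. Among 8 tested genes each of the thick ascending limb and of collecting duct principal cells, 6 and 7 were lower, with medians of -0.28 and -0.20, or -0.16 and -0.13 without control array 3. Without exposed array 3 the collecting duct median was -0.12. Without control array 3 the median of the medullary genes was -0.12 and that of the cortical genes -0.03. On a urothelium list added after seeing the values, 6 of 17 genes were tested, 5 of them only through the controls, and all 6 were lower with a median of -0.62, or -0.61 without control array 3. On an inner medulla list added in the same way, 6 of 7 tested genes were lower with a median of -0.43, and 5 of 7 without that array with a median of -0.31. How much medulla each cortex sample held was not measured, and its part in the differences was not tested.

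**Figure D4:**
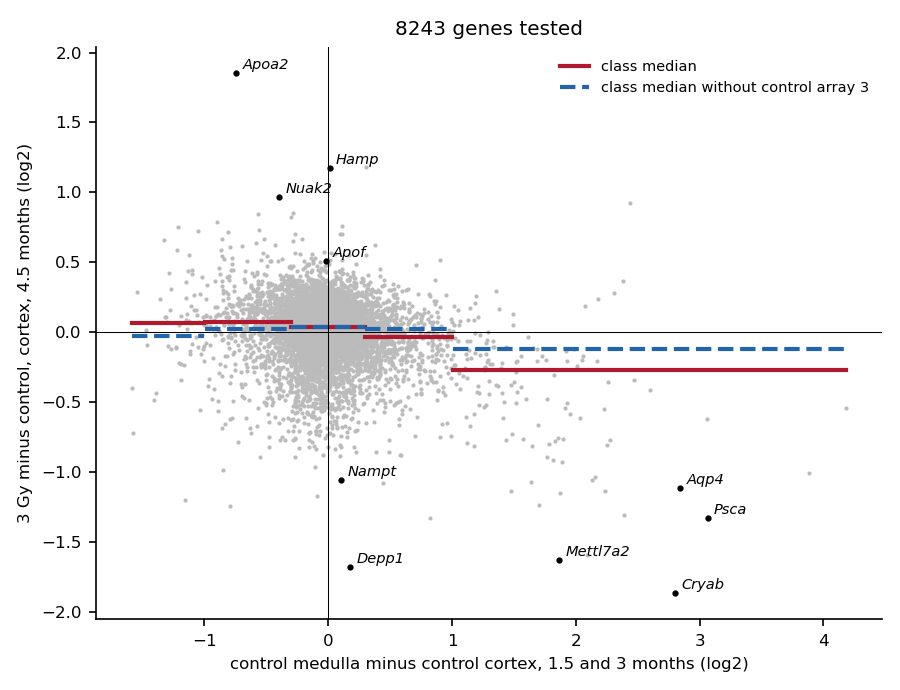
Difference between 3 Gy and control cortex at 4.5 months (vertical axis, log2) against the difference between control medulla and control cortex at 1.5 and 3 months (horizontal axis, log2), one grey point per tested gene. Red lines are the medians of 5 classes of genes by the horizontal axis, and blue dashed lines the same without control array 3. The rightmost class has a median of -0.27, or -0.12 without that array, while Hamp and Apof lie near 0 and Apoa2 at -0.74 on the horizontal axis.

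Depp1 and Igfbp1, targets of the FOXO factors that insulin represses, came close to the threshold, with control medulla only 0.18 above cortex for Depp1 and at -0.10 for Igfbp1. Depp1, which encodes a FOXO-induced regulator of autophagy, read 7.66, 7.26 and 7.77 at 3 Gy against 8.82, 10.11 and 8.81 in controls. The groups did not overlap, and the difference of -1.68 ± 0.34 had an adjusted p of 0.0571 in limma. Igfbp1, which binds insulin-like growth factors, read 7.20, 7.11 and 7.35 against 7.96, 8.49 and 8.11, a difference of -0.97 ± 0.20 (adjusted p = 0.0633). It lay under the floor on exposed arrays 1 and 2 and was tested only through the controls, which favours a fall. In limma, Igfbp1 passed with an adjusted p of 0.0474 when the spread came from the 6 arrays alone and 0.0126 with array weights. Depp1 passed with 0.0347 after cyclic loess, 0.0327 after normexp and 0.0118 with array weights. Depp1 stood -2.03 from the shared control at 0.3 Gy and -0.54 at 10 Gy, and Igfbp1 -0.87 and -0.17. The other 32 cortex arrays, controls included, had medians of 8.48 for Depp1 and 7.75 for Igfbp1. Exposed means of 7.56 and 7.22 lay below these medians, and control means of 9.24 and 8.19 lay above them. Control array 2 was the highest of the 32 for both genes.

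Of the 18 genes on the list of FOXO targets and insulin response, 13 were tested, with 5 higher, 8 lower and a median of -0.37. None passed the adjusted threshold, 4 were lower at an unadjusted p under 0.05 and 1 was higher, against 3.94% and 7.04% of all genes, and 7 lay below all controls against 9.72% of all genes. Irs2, an adaptor of the insulin receptor, read 8.48, 8.56 and 8.36 against 8.72, 9.06 and 9.03. Txnip, which restrains glucose uptake, read 11.27, 11.18 and 11.10 against 11.71, 11.62 and 11.59, and both groups were apart. The gluconeogenic Pck1 read 9.87, 10.70 and 10.26 against 11.45, 11.03 and 11.33, while G6pc overlapped at 13.39, 13.32 and 13.43 against 13.31, 13.58 and 13.05. Cdkn1b, a cell cycle inhibitor induced by FOXO, was higher by 0.26 ± 0.08 (adjusted p = 0.294). Its control mean of 7.02 lay under the floor, so it was tested only through the exposed arrays. Its other probes, with means under the floor, differed by -0.004 and -0.04. Without control array 2, where Depp1 was highest, the list's median was -0.17.

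Among fatty acid oxidation genes and PPAR targets, 26 of 32 were tested, 22 were lower and 4 higher with a median of -0.14, and none passed. Below all controls lay 7 of them, against 9.72% of all genes. The median was -0.27 without control array 3, -0.12 without control array 2 and -0.13 without exposed array 3. Cyp4a14, a fatty acid hydroxylase induced by PPAR-alpha, read 13.64, 13.51 and 13.32 against 13.84, 14.06 and 13.94, at -0.46 ± 0.13 (adjusted p = 0.237). Ehhadh, an enzyme of peroxisomal beta-oxidation, read 10.61, 10.71 and 10.81 against 11.55, 11.46 and 11.22, at -0.70 ± 0.24 (0.333). Ppara itself was on the other side, at 8.44, 7.89 and 8.07 against 7.64, 7.99 and 7.46, with overlap.

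Antigen presentation and interferon genes mostly had lower means at 3 Gy, and the direction of the first rested on 1 control array. Of 18 tested genes of MHC and antigen presentation, 17 were lower and 1 higher with a median of -0.38, and none passed the adjusted threshold. Control array 2 was the highest of the 6 arrays for 17 of the 18, as for the invariant chain Cd74, at 14.10 there, 11.63 and 11.85 on the other controls and 11.77 to 12.78 at 3 Gy. Without that array 12 were higher and 6 lower, with a median of 0.18. The median was -0.62 without control array 1 and -0.19 without exposed array 3. Of 20 tested interferon-stimulated genes, 17 were lower with a median of -0.24, and 11 were lower without control array 2 with a median of -0.12. Without exposed array 3 the median was -0.12 as well. Ifit2 stayed apart, at 8.75, 8.77 and 8.18 against 9.14, 9.09 and 9.04, with an adjusted p of 0.372. Adgre1, a surface marker of mouse macrophages, read 7.87, 8.16 and 8.14 against 8.25, 8.72 and 8.80, at -0.53 ± 0.14 (0.221), whereas 4 of the 14 tested macrophage genes were higher and 10 lower, with a median of -0.03. That split was 9 and 5 without control array 2, 10 and 4 without control array 3 and 7 and 7 without exposed array 2.

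Matrix genes leaned the other way. Of 24 tested genes of extracellular matrix and fibrosis, 18 were higher and 6 lower with a median of 0.16, and 3 were higher at an unadjusted p under 0.05, as were 7.04% of all genes. None passed the adjusted threshold, and the median was 0.10 without control array 1. Mmp14, a membrane-bound matrix protease, read 9.15, 8.90 and 9.13 against 8.39, 8.75 and 8.75, and Loxl1, a collagen and elastin cross-linker, 9.89, 9.65 and 9.36 against 8.84, 9.20 and 9.27, with adjusted p of 0.399 and 0.424. Col4a1, a chain of basement membrane collagen, read 11.52, 11.62 and 11.28 against 11.05, 11.13 and 11.28. The collagen chain Col3a1 and the myofibroblast actin Acta2 overlapped.

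Genes of the p53 response, which radiation is known to induce acutely, were split. Of 19 tested, 8 were higher and 11 lower with a median of -0.01, and 12 were higher and 7 lower without control array 2. Mdm2, the p53 target that degrades p53, read 10.28, 10.37 and 10.02 against 9.74, 9.74 and 9.86, a difference of 0.45 ± 0.10 with an adjusted p of 0.0786. Mdm2 stood 0.53 above the shared control at 0.3 Gy and 0.40 above it at 10 Gy. Its other probes differed by 0.29 and by -0.12 at 3 Gy, the latter with means under the floor. Pmaip1, which encodes the pro-apoptotic protein NOXA, read 8.10, 8.66 and 7.997 against 7.90, 7.81 and 7.65 (adjusted p = 0.278). A second Pmaip1 probe, with means of 7.58 at 3 Gy and 7.55 in controls, differed by 0.02 and did not show that rise. Bbc3, which encodes PUMA, was lower at 7.60, 7.34 and 7.56 against 7.62, 7.82 and 7.94 (0.399). The cell cycle inhibitor Cdkn1a overlapped at 7.99, 8.42 and 7.88 against 7.54, 7.56 and 7.97, and Ccng1, Sesn1 and Zmat3 lay within 0.10 log2 units of control.

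**Figure D5:**
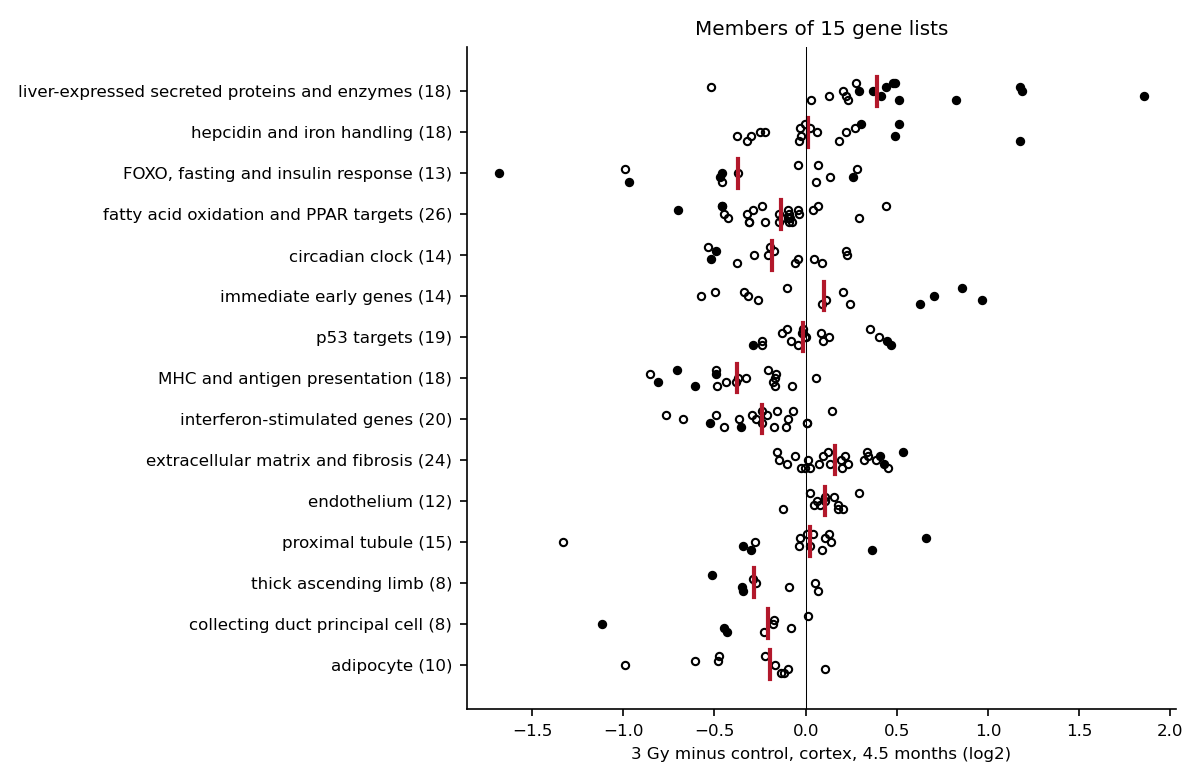
Difference between 3 Gy and control cortex at 4.5 months (horizontal axis, log2) for the tested members of 15 gene lists (vertical axis, number tested in brackets), one point per gene. Filled points have an unadjusted p under 0.05 and red bars are list medians. The liver-expressed list has a median of 0.39, and the FOXO and MHC lists have medians of -0.37 and -0.38, the latter changing to 0.18 without control array 2.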

How the data were processed

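Total RNA was extracted with a lipid tissue kit, labelled with biotin and hybridised to Illumina arrays, per the labels' protocols. The authors deposited normalized linear intensities, whose sorted values differ by at most 1.26 between arrays; background correction and the software used are not given in the sources used here. Of the series, 144 signal and detection columns of values before normalization name no sample and were not used, so no detection filter was possible. From the deposited intensities, log2 values were taken for the 23978 of 25697 probes with 1 gene symbol in the platform annotation (1719 have none), keeping the probe with the highest mean over 72 arrays for each gene, and genes with an intensity of at least 150 on all 3 arrays of either group.

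Groups were fitted with limma 3.58.1 in R 4.3.3 (lmFit, and eBayes with a trend) over 35 cortex arrays in 12 groups, or 71 arrays in 24 groups for comparisons with medulla, and p-values were adjusted by the Benjamini-Hochberg method over 8243 genes. The precision is limited by 3 arrays per group. On simulated data for the main comparison, 8%, 62%, 84% and 98% of changes of 0.3, 0.5, 0.75 and 1 log2 units were recovered (50 genes each, 8243 tested), with 5 false among 131 calls. The simulated noise was independent between genes and had the same spread in every group. It held no shift shared by many genes of an array and no group of wider spread. The recovered shares therefore need not hold for the measured arrays. Promoters came from RefSeq and were aligned with Biopython 1.88.

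The members and gene lists were chosen with earlier results of these data known. Named by rule were genes past the adjusted threshold, the 12 largest differences each way without overlap and with an unadjusted p under 0.05, up to 4 members per list with the smallest such p, the 3 smallest p of each difference test, and measured members of the liver and iron lists. Chosen after their values were seen were Cirbp, Fos, Egr1, Pck1, G6pc, Ppara, Cd74, Col4a1, Col3a1, Acta2, Cdkn1a, Ccng1, Sesn1, Zmat3, Slc14a2, Slc34a1 and Cyp11b1, and any other gene outside the rule. Alternatives were the array set, array weights, normalization, background correction, floor, probe choice, trend, a replicate block and leaving out each array. Leaving out array 3 of both groups, and lists and layer classes without each array, were added after seeing the data.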

Additional observations from a re-analysis of the deposited data

Results flagged for a closer look

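The difference in Hamp between 3 Gy and control cortex at 4.5 months exceeded the mean of the differences at 1.5 and 3 months by 1.17 log2 units, a test of the difference itself (limma, adjusted p = 0.00911). In the same way it exceeded the difference in the medulla at 4.5 months by 1.15 log2 units (limma, adjusted p = 0.000191). With the spread taken only from the arrays compared, limma's adjusted p were 0.0725 and 0.999. Both contrasts contain the same exposed and control cortex arrays by which Hamp was picked, so neither is separate evidence of its rise.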

How the results depend on the processing

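The comparison with control gave 3 calls. It gave 1 with the array that stood apart included, 1 from the 12 cortex arrays of 4.5 months (Nuak2, not among the 3), 5 with cyclic loess, 5 with normexp, and 0 at a floor of 200, which leaves Hamp and Apof untested and where limma found 805 of 6713 genes at an unadjusted p under 0.05. From its 6 arrays alone it gave 14, none of them among the 3, and with array weights, whose iteration did not fully converge, 90 including all 3. Against 0.3 and 10 Gy, 5 calls became 2 from the arrays compared alone (none shared), 525 with array weights and 1 at a floor of 200. The single calls against the earlier times and against the medulla became 0 at a floor of 200 (340 and 117 genes at an unadjusted p under 0.05), and the latter 0 from the arrays compared alone (202 genes). Leaving out 1 array gave 1 to 6, 3 to 10, 0 to 3 and 1 to 3 calls in these 4 comparisons. Whether equal replicate numbers pair the samples was not settled, since samples of unlike numbers were not set beside them. The r of deviations between samples of equal number was -0.01, -0.07 and 0.18 for exposed and control cortex. It was 0.13, 0.08 and -0.13 for exposed cortex and medulla, and 0.27, -0.05 and 0.26 for control cortex and medulla. With a replicate block the counts were 4, 5, 1 and 1, the first adding Igfbp1. No gene difference recomputed under the alternatives reversed its direction, but medians of gene lists did: MHC genes went from -0.38 to 0.18 and adipocyte genes from -0.20 to 0.05 without control array 2, and cortical genes from 0.07 to -0.03 without control array 3. Near 0, medians of the macrophage, p53, iron and immediate early lists also changed sign when single arrays were left out. Low signal limits Hamp and Apof, whose controls lay under the floor. Beyond that loss of tested genes, the causes were not tested.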

Other observations

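Over all tested genes 57.7% were higher at 3 Gy and 42.3% lower, with a median of 0.03 log2 units. Endothelial genes had higher means for 11 of the 12 tested, with a median of 0.11 (0.07 without control array 1). DNA repair genes had higher means for 13 of 18, with a median of 0.06, close to that of all genes. Of these, 2 endothelial genes and 1 DNA repair gene passed the floor only through the exposed arrays, which favours a rise. Circadian clock genes had lower means for 10 of 14, with a median of -0.18 (-0.12 without control array 2). Adipocyte genes had lower means for 9 of 10 tested, with a median of -0.20, but that direction rested on control array 2: without it 6 were higher and 4 lower, with a median of 0.05. Without exposed array 2, 4 were higher and 6 lower. No gene of these 4 lists passed limma's adjusted threshold.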
